A study of Mus musculus with 4 samples.

Results

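The CC chemokine genes Ccl2, Ccl7, Ccl11, Ccl12 and Ccl8 lie side by side on mouse chromosome 11. The region described here reached from 100 kb before the lower end of Ccl2 to 100 kb after the upper end of Ccl8 (GRCm38, chr11:81935577-82216799, 281 kb), and every peak inside it was taken. Overlapping peaks of the 4 libraries were merged, which gave 28 sites in the region of 172311 in the genome. The libraries were ATAC-seq libraries, in which the Tn5 transposase cuts and tags open chromatin, so that a peak is a stretch with more tags than its surroundings. The cells were chondrocytes from knee cartilage of C57BL/6 mice aged 0 to 4 days after birth, grown in DMEM/F12 medium with fetal bovine serum. Passage 0 (P0) cells had been in culture for under 24 hours, and passage 8 (P8) cells had been passaged serially as a dedifferentiation model. There were 2 libraries per passage, called P0-A, P0-B, P8-A and P8-B here because the numbers in their peak names do not match the replicate numbers in the sample titles, and the number of animals behind each library was not given in the sources used here.

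CC chemokines are small secreted proteins that draw leukocytes along a gradient by binding receptors on the surface of those cells. Ccl2, Ccl7, Ccl12 and Ccl8 belong to the monocyte chemoattractant group. Ccl2, Ccl7 and Ccl12 act largely through Ccr2 on monocytes, and Ccl11 is eotaxin, which draws eosinophils through Ccr3. Connective tissue cells make several of them after inflammatory signals such as interleukin 1 and tumour necrosis factor, which act through NF-kB and AP-1, and Ccl2 has both a proximal promoter and a distal enhancer upstream.

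Peaks of the cluster were densest around Ccl2 and Ccl7. Ccl2 and Ccl7 had a peak at their start in 4 of 4 libraries, while Ccl11, Ccl12 and Ccl8 had none in any library. Among all protein-coding genes, 56.1% had a start peak in all 4 libraries and 34.0% had one in none. Scaled for depth, the peak at Ccl2 was 1.72 times as high at P8 as at P0 and the peak at Ccl7 was 1.23 times as high. Both P8 libraries lay above both P0 libraries at either gene, an order that 2.40% of gene starts showed. This scale was not planned and was chosen after the values had been seen. The background of tags around Ccl2 and Ccl7 was also higher at P8, so that the deposited fold enrichment, which divides by it, was about level at Ccl2 (ratio 1.04) and lower at P8 at Ccl7 (ratio 0.642, an order shown by 61.7% of gene starts). With 2 libraries against 2, the exact two-sided permutation test cannot give a p under 0.333, so no single difference here could pass 0.05.

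Of the 5 genes, the starts of Ccl12 and Ccl8 had promoter sequences in the RefSeq table of GRCm38.p6. They are shown because they were the only ones of the 5 in that table, and no library had a peak at either start. Each runs from 250 bases before to 50 bases after the start on the plus strand, at chr11:82101595-82101894 for Ccl12 and chr11:82114935-82115234 for Ccl8, with a TATA box (TATAAA, searched on the plus strand) in capitals.
Ccl12: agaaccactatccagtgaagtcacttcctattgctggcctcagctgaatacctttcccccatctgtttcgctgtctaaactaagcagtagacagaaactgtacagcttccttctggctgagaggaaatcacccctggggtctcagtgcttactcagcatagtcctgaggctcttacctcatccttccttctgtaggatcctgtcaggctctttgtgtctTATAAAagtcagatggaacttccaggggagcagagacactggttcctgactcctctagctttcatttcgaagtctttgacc
Ccl8: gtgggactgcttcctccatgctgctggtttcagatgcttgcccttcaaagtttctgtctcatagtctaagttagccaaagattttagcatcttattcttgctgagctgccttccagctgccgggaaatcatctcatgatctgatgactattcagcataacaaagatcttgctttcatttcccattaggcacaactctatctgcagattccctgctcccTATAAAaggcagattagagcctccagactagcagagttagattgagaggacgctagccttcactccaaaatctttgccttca
The TATA box began at position -31 in Ccl12 and -32 in Ccl8, and 8.32% of the 32851 promoters in the table held this motif anywhere in the same window. Neither promoter held the AP-1 letters TGANTCA or the STAT letters TTCNNNGAA on either strand, which 7.81% and 8.30% of all promoters held. Both held 2 CpG dinucleotides, where the median promoter held 7.

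The region held 24 peaks in P0-A, 16 in P0-B, 21 in P8-A and 22 in P8-B. The P0 mean was 20 ± 5.66 and the P8 mean 21.5 ± 0.707 (SD, n = 2 each), a ratio of 1.075, with an exact two-sided permutation p of 1. Without P0-B the ratio was 0.896. Over the whole genome the P8 libraries had fewer peaks, at 89610 and 99784 against 145703 and 119974, and the ratio was 0.713. As a share of a library's peaks the region therefore held 0.0165 and 0.0133% at P0 and 0.0234 and 0.0220% at P8. The groups did not overlap, with a ratio of 1.53 and an exact two-sided permutation p of 0.333, the smallest that this design allows. Depth differed too, with 194 and 162 tags per 10 kb as the genome background of the P0 libraries and 140 and 134 in the P8 libraries. A summit of 6 tags was the lowest called at the genome background in every library.

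**Figure D1:**
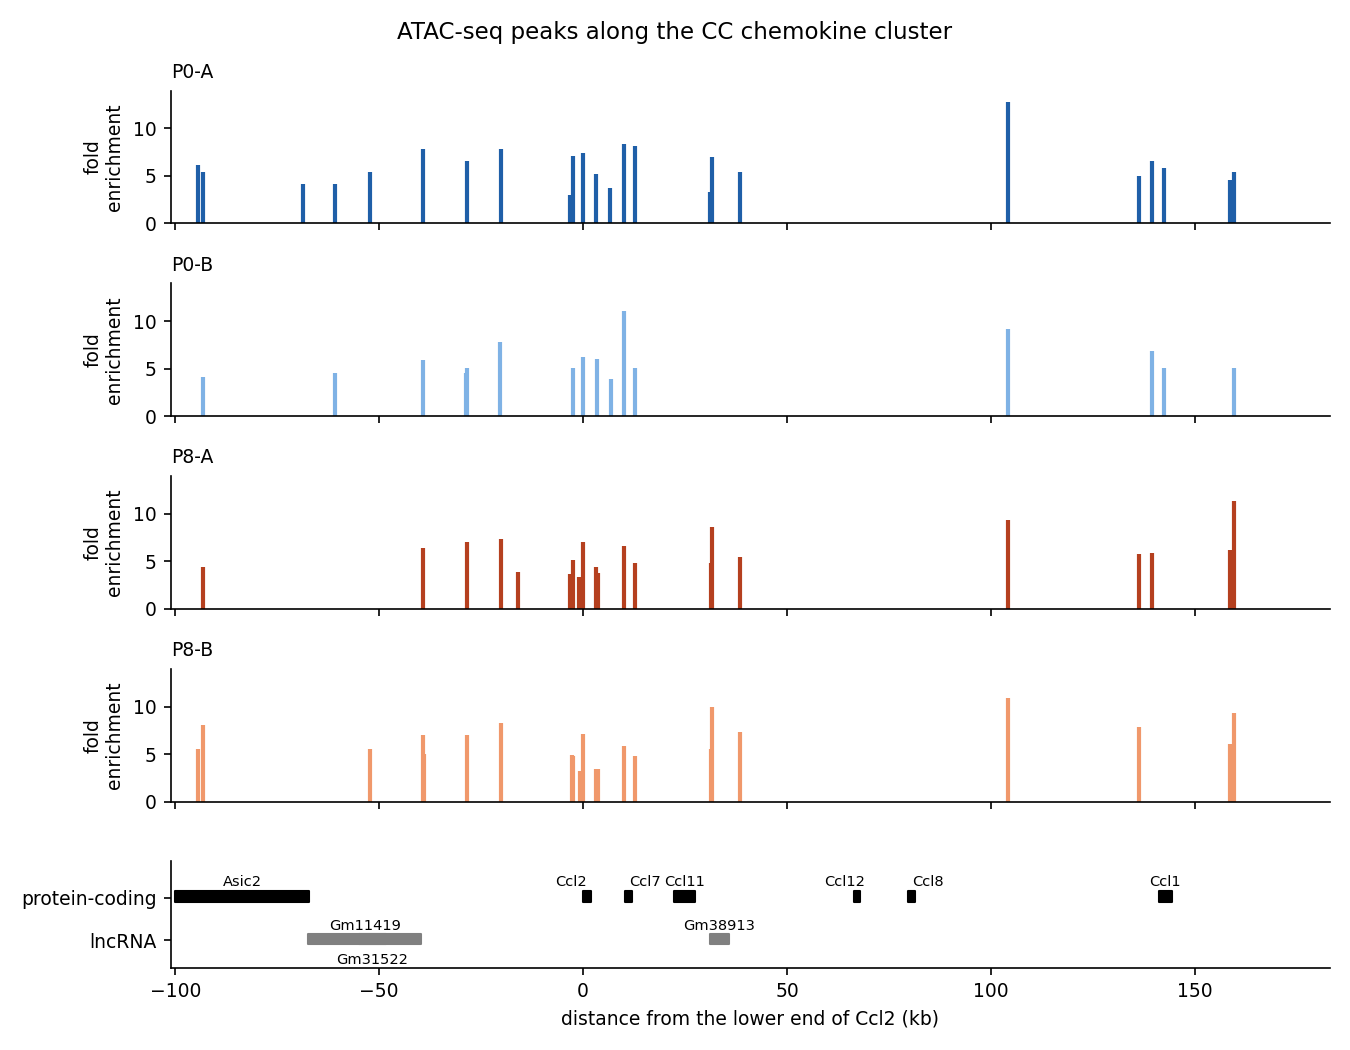
Fold enrichment over the local background (vertical axis) of every ATAC-seq peak in each library against the distance of its summit from the lower end of Ccl2 in kb (horizontal axis), with the genes of the region below. Peaks gathered around Ccl2 and Ccl7 in every library, and no library had a peak in the 65.3 kb that hold Ccl12 and Ccl8.

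Sites were spread unevenly along the cluster. The region held 9.96 sites per 100 kb, against 8.55 on chromosome 11 and 6.63 over chromosomes 1 to 19 and X. From 3.2 kb before the lower end of Ccl2 to 0.7 kb after the upper end of Ccl7 lay 9 of the 28 sites. Beyond them no library had a peak for 18.4 kb, a gap that holds all of Ccl11, and 20.2% of the gaps between neighbouring sites in the genome were at least as long. The site nearest to Ccl11 began 3.7 kb after its upper end, in the long non-coding RNA gene Gm38913. A second gap of 65.3 kb (chr11:82074115-82139378) holds Ccl12 and Ccl8, and 3.98% of gaps in the genome were as long. The nearest site was 27.7 kb from Ccl12 and 22.6 kb from Ccl8. Among the neighbours, Asic2, an acid-sensing ion channel gene, overlapped 3 sites, the long non-coding RNA genes Gm11419 and Gm31522 overlapped 2 and 1, and Ccl1, which attracts cells with the receptor Ccr8, overlapped 2. Each of the 2 sites in Ccl1 was held by a single P0 library and by neither P8 library.

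Most sites were held at both passages. A peak was present in all 4 libraries at 11 of 28 sites (39.3%, against 32.4% of all sites), and 20 sites had a peak in at least one library of each passage (71.4%, against 48.1% of all sites). At 2 sites both P8 libraries had a peak and P0 had none, a pattern of 1.84% of all sites. At 2 other sites both P0 libraries had a peak and P8 had none, a pattern of 17.0% of all sites. With 28 sites these counts are small. Another 5 sites had a peak in P0-A and both P8 libraries but not in P0-B, which is 17.9% of the sites against 2.27% of all sites, a pattern picked out after the values were seen. The sites held by P8 alone were 7 without P0-A and 4 without P8-B, and those held by P0 alone were 4 without P0-B.

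The first site held by both P8 libraries alone lay 0.8 kb before the lower end of Ccl2 (chr11:82034583-82034750). Its summit had 15 tags in P8-A and 15 in P8-B, with fold enrichments of 3.40 and 3.26. The second lay 1.8 kb after the upper end of Ccl2 (chr11:82039237-82039313), again with 15 tags in each P8 library and fold enrichments of 3.73 and 3.47. Both were weak peaks on a high local background. The sites held by both P0 libraries alone were also weak. One lay in Gm11419, 60.7 kb before Ccl2 (chr11:81974767-81974895), with 9 tags in each P0 library and fold enrichments of 4.14 and 4.58. The other lay 3.4 kb before the lower end of Ccl7 (chr11:82042194-82042304), with 13 and 11 tags and fold enrichments of 3.74 and 3.90. P8-only and P0-only peaks thus occurred within the same stretch between Ccl2 and Ccl7.

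Ccl2 encodes the main chemoattractant of monocytes. The site at its start spanned chr11:82035249-82035688 and reached from 0.3 kb before to 0.1 kb after the lower end of the gene. Its summit had 32 tags in P0-A, 20 in P0-B, 33 in P8-A and 35 in P8-B. Values below keep this order of the libraries. The deposited fold enrichments were 7.39 and 6.19 at P0 and 7.05 and 7.08 at P8, so the P8 values lay between those of P0. The means were 6.79 ± 0.849 and 7.06 ± 0.0206 (SD, n = 2 each), with an exact two-sided permutation p of 1. Divided by the genome background of each library, a measure of depth, the summit was 22.6 and 16.9 times that background at P0 and 32.3 and 35.7 times at P8. On this scale the groups did not overlap, with means of 19.7 ± 4.05 and 34.0 ± 2.45 (SD, n = 2 each) and an exact two-sided permutation p of 0.333. This second scale, called the scaled summit below, was chosen after the values had been seen.

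Ccl7 encodes a chemoattractant of monocytes with a wider choice of receptors. The site at its start spanned chr11:82045454-82045911. Its summit had 25 and 27 tags at P0 and 26 and 24 tags at P8, which is nearly level. The fold enrichments were 8.32 and 11.1 at P0 and 6.59 and 5.89 at P8, with means of 9.72 ± 1.98 and 6.24 ± 0.494 (SD, n = 2 each), so the passages did not overlap and P8 was the lower. The scaled summits went the other way, at 17.7 and 22.8 at P0 and 25.4 and 24.5 at P8, with means of 20.2 ± 3.63 and 25.0 ± 0.652 (SD, n = 2 each). The nearest libraries of the passages, P0-B at 22.8 and P8-B at 24.5, differed little on this scale. Both differences had an exact two-sided permutation p of 0.333.

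On the scaled summit, the direction at Ccl2 and Ccl7 was uncommon among gene starts. Of the 12287 protein-coding genes that had a start peak in all 4 libraries, 2.40% had both P8 scaled summits above both P0 scaled summits, as Ccl2 and Ccl7 did, and 77.6% had the reverse. By fold enrichment 4.24% had P8 above and 61.7% had P8 below, as at Ccl7, while the passages overlapped at Ccl2. The median gene start was 0.773 times as high at P8. A ratio at least as large as that of Ccl2 was found at 0.138% of these genes, and one at least as large as that of Ccl7 at 1.58%. The genes and this scale were chosen with results of these data known, so these shares only describe the 2 genes. For Ccl11, Ccl12 and Ccl8 no value could be given, since no library had a peak within 1 kb of their starts. The absence of a peak call does not show that these starts were closed.

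**Figure D2:**
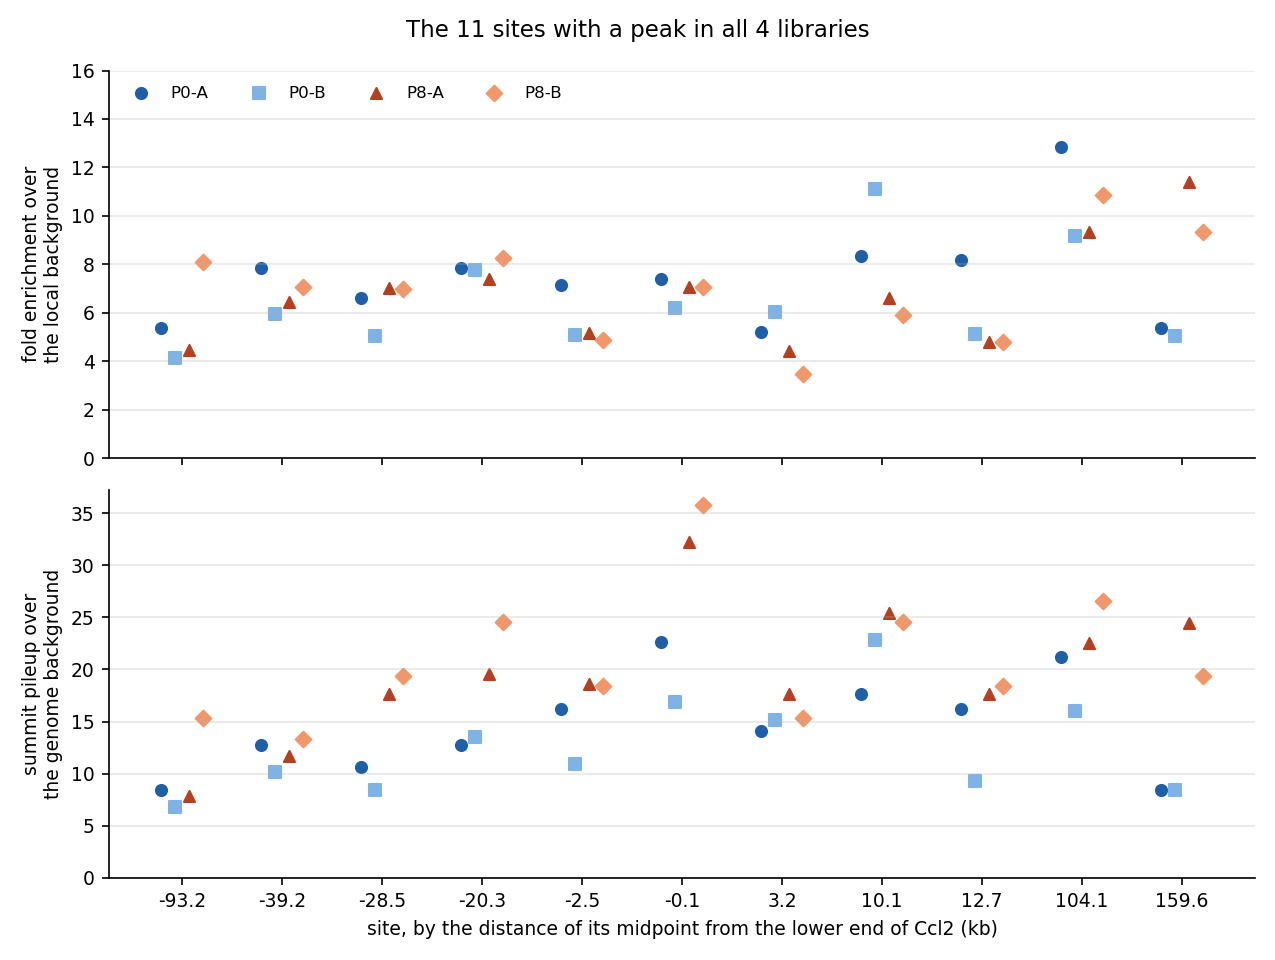
Fold enrichment over the local background (upper panel) and summit pileup over the genome background (lower panel) in each of the 4 libraries, at the 11 sites with a peak in all 4, ordered by distance from the lower end of Ccl2 in kb. In the lower panel both P8 libraries lie above both P0 libraries at 9 sites, and in the upper panel at 2.

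The 11 sites held by all libraries moved together on the scaled summit but not on the fold enrichment. By fold enrichment both P8 libraries lay above both P0 libraries at 2 sites (background 11.6% of 55890 such sites in the genome) and below at 3 (background 49.9%). The median log2 ratio of P8 over P0 was -0.03 in the region and -0.20 over all such sites. By scaled summit both P8 libraries lay above at 9 of 11 sites (background 15.7%) and below at 0 (background 50.1%). The median log2 ratio was 0.50, with a range from 0.13 to 1.37, against -0.24 over all such sites. Leaving out any 1 library left 9 to 11 sites with P8 above on the scaled summit, where 18.3 to 31.0% of all sites had this order. A library left out only loosens this order, so the count could not fall below 9. The summits as deposited, in tags, had a median log2 ratio of 0.08 in the region and -0.62 over all such sites. The sites are neighbours in 1 region and share their libraries, so they are not independent of each other.

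The largest difference in fold enrichment at these sites was far from the 5 genes. It was found 15.1 kb beyond the upper end of Ccl1 and 78.2 kb beyond Ccl8 (chr11:82194960-82195304). The summits had 12 and 10 tags at P0 and 25 and 19 tags at P8. The fold enrichments were 5.38 and 5.03 at P0 and 11.4 and 9.32 at P8, a log2 ratio of 0.99, and the scaled summits were 8.48 and 8.44 at P0 and 24.5 and 19.4 at P8, a log2 ratio of 1.37. Both scales thus put both P8 libraries above both P0 libraries. The other site of this kind lay 28.2 kb before Ccl2 (chr11:82006779-82007380), with fold enrichments of 6.62 and 5.03 at P0 and 7.02 and 6.97 at P8, and scaled summits of 10.6 and 8.44 at P0 and 17.6 and 19.4 at P8. It lies in the intergenic stretch upstream of Ccl2, beside another site 20.1 kb before Ccl2 (chr11:82015132-82015479). There the fold enrichments were 7.86 and 7.78 at P0 and 7.38 and 8.25 at P8, which overlap, and the scaled summits were 12.7 and 13.5 at P0 and 19.6 and 24.5 at P8, which do not.

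The strongest site by mean fold enrichment was intergenic, 22.6 kb after the upper end of Ccl8 (chr11:82139379-82140000). Its fold enrichments were 12.8 and 9.15 at P0 and 9.31 and 10.9 at P8, so the passages overlapped. Its scaled summits were 21.2 and 16.03 at P0 and 22.5 and 26.6 at P8, which put both P8 libraries above by a small margin over P0-A. No other site lay within 31.8 kb of it on either side.

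Lower fold enrichment in both P8 libraries was seen at the Ccl7 start and at the shared sites 1.1 kb after Ccl2 and 0.7 kb after Ccl7. The site 1.1 kb after the upper end of Ccl2 (chr11:82038566-82039080) had fold enrichments of 5.22 and 6.04 at P0 and 4.43 and 3.49 at P8, and scaled summits of 14.1 and 15.2 at P0 and 17.6 and 15.3 at P8. The site 0.7 kb after the upper end of Ccl7 (chr11:82048191-82048314) had fold enrichments of 8.18 and 5.12 at P0 and 4.80 and 4.79 at P8. Its scaled summits were 16.2 and 9.28 at P0 and 17.6 and 18.4 at P8. At the first of these sites the nearest libraries of the passages, at 15.2 and 15.3, differed by less than 1 tag. The site 2.4 kb before Ccl2 (chr11:82032908-82033217) overlapped between passages by fold enrichment, at 7.15 and 5.07 against 5.17 and 4.88, with scaled summits of 16.2 and 10.97 against 18.6 and 18.4. Among the remaining shared sites, the one in Asic2 93.1 kb before Ccl2 had a log2 ratio of fold enrichment of 0.40 that rested on P8-B alone, where the value was 8.08 against 5.38 and 4.12 at P0 and 4.45 in P8-A.

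The 5 sites with a peak in every library but P0-B all lay on the upper side of Ccl11. The strongest of them was in Gm38913 (chr11:82067079-82067372), with fold enrichments of 7.04 in P0-A and 8.59 and 10.0 in the P8 libraries. Its scaled summits were 11.3 in P0-A and 16.6 and 21.4 at P8. At the other 4 sites the fold enrichments were from 3.31 to 5.38 in P0-A and from 4.81 to 7.83 in the P8 libraries. In each of the 5, both P8 libraries were above P0-A by fold enrichment, an order found at 61.0% of the 3918 sites in the genome with this pattern of peaks.

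**Figure D3:**
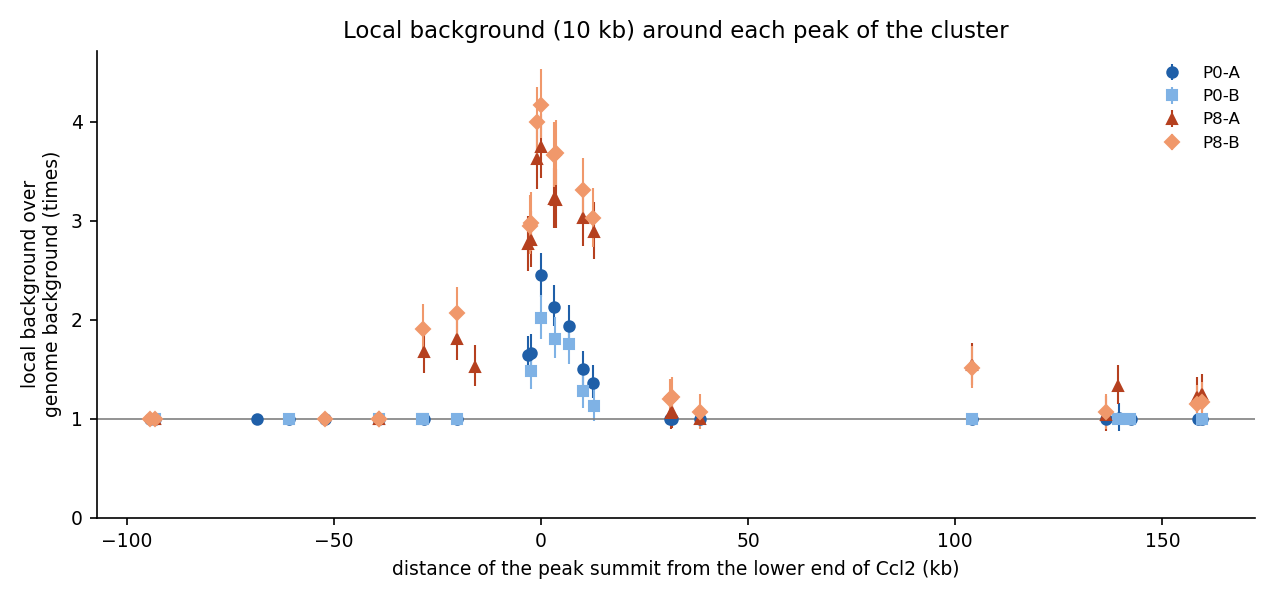
Tags in the 10 kb around each peak of the region, relative to the genome background of the same library (vertical axis, times), against the distance of the summit from the lower end of Ccl2 in kb (horizontal axis). Bars are exact 95% Poisson intervals of the tag number. Values of 1 stand at the genome level, which is a floor, so the tags there may be fewer. From just before Ccl2 to just after Ccl7 the P8 libraries reach 2.76 to 4.17 times the genome background and the P0 libraries 1.13 to 2.45 times.

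The local background, which is the number of tags in the 10 kb around a peak, was recovered from the deposited values. It is known only where a library has a peak, and the lowest value of a library was taken as its genome background. A peak at the genome level is thus at a floor, and the tags around it may be fewer. From just before Ccl2 to just after Ccl7 the local background was 265 to 475 tags at the 7 peaks of P0-A, 184 to 328 at the 6 of P0-B, 387 to 524 at the 8 of P8-A and 396 to 560 at the 8 of P8-B. At the 5 sites of this stretch with a peak in all 4 libraries, it was 1.37 to 2.45 and 1.13 to 2.02 times the genome background of the library at P0 and 2.81 to 3.74 and 2.98 to 4.17 times at P8. The ranges of the passages did not overlap at these 5 sites. At the Ccl2 start the local background was 475 tags (95% Poisson interval 433 to 520) in P0-A, 328 (293 to 365) in P0-B, 524 (480 to 571) in P8-A and 560 (515 to 608) in P8-B. These intervals cover counting error only, and the 10 kb windows of these sites overlap each other and include the peaks themselves.

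Outside this core the local background was above the genome level at P8 at some sites on both sides. Every P8 peak 39 kb or more before Ccl2 was at the genome level. At the sites 28.2 and 20.1 kb before Ccl2 the local background was at the genome level in both P0 libraries and was 1.67 and 1.81 times that level in P8-A and 1.91 and 2.07 times in P8-B. At the strongest site, beyond Ccl8, it was at the genome level in both P0 libraries and 1.54 and 1.51 times that level at P8, and at the site beyond Ccl1 it was 1.25 and 1.17 times that level at P8. Of the peaks outside the core, 16 of 17 in P0-A and 10 of 10 in P0-B were at the genome level, where 41.5 and 37.9% of all peaks of these libraries were. In P8-A 3 of 13 and in P8-B 5 of 14 were at it, where 29.3 and 29.0% of all peaks were. Over the 11 shared sites both P8 libraries had the higher local background at 9 (background 14.4%) and the lower at 0 (background 45.7%). The median ratio of P8 over P0 was 1.77, against 0.939 over all shared sites in the genome. Ratios at sites with a peak on the floor are not exact.

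**Figure D4:**
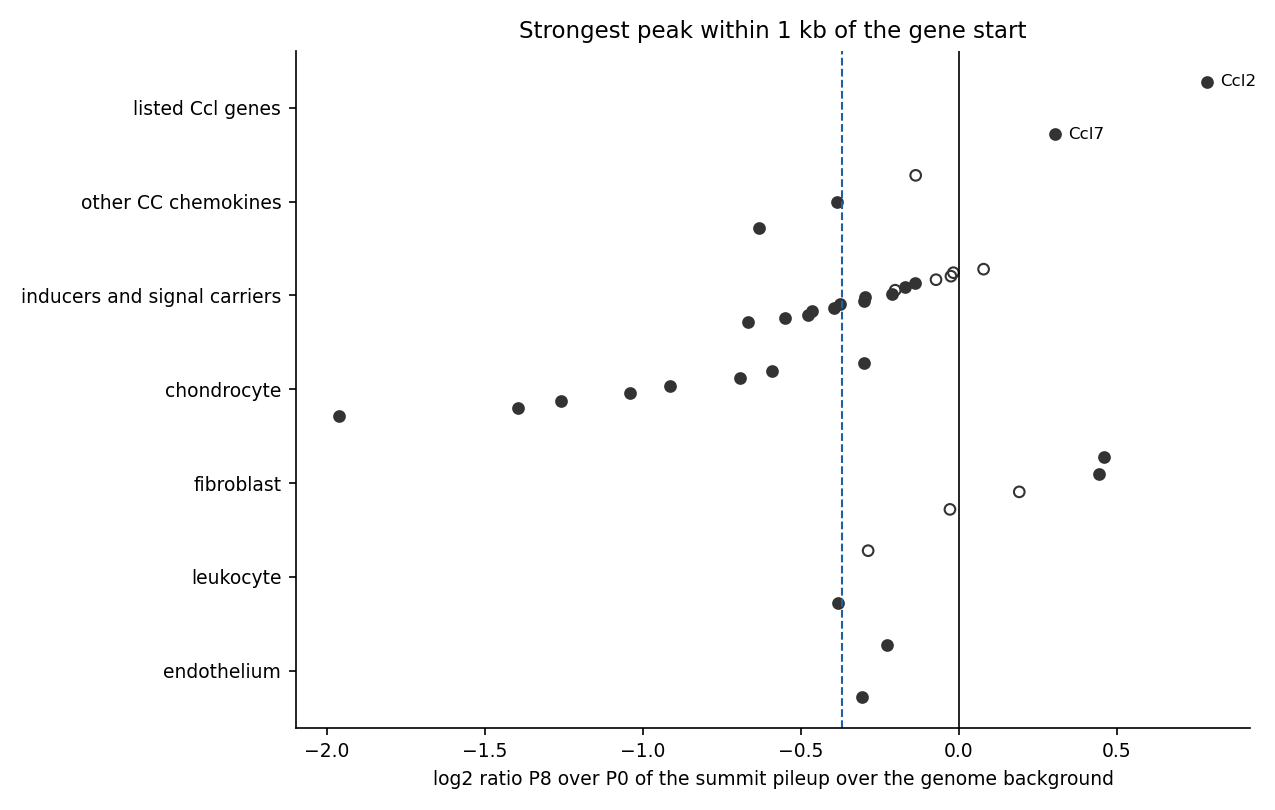
log2 ratio of P8 over P0 of the summit pileup over the genome background (horizontal axis) at the strongest peak within 1 kb of each gene start, for genes with a peak in all 4 libraries, by gene list (vertical axis). Filled points are genes whose passages do not overlap, the dashed line is the median of 12287 genes (-0.37), and Ccl2 and Ccl7 stand at 0.78 and 0.30.

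Most of the other CC chemokine genes had no start peak. Of 15 listed, 11 had none in any library, among them Ccl3, Ccl4 and Ccl5, where 34.0% of protein-coding genes had none, and 3 had one in all 4 libraries. None of these 3 was higher in both P8 libraries, an order of 2.40% of gene starts. Ccl9 had scaled summits of 21.2 and 17.7 at P0 and 9.78 and 15.3 at P8. Ccl27a had 36.7 and 43.0 at P0 and 29.3 and 31.7 at P8. Both genes were lower in both P8 libraries, as 77.6% of gene starts were. Ccl25, which draws thymocytes, had overlapping values of 53.7 and 56.5 at P0 and 43.0 and 57.2 at P8. Of the 9 receptor genes listed, among them Ccr2, Ccr3 and Ccr8, none had a peak at the start in any library.

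Of 19 genes listed for the inducers' receptors and for the factors that carry their signals, 16 had a start peak in all 4 libraries, as 56.1% of 21887 protein-coding genes had. Scaled summits were lower in both P8 libraries at 11 of the 16 and higher at 0, with a median log2 ratio of -0.25, where 77.6% of gene starts were lower and 2.40% higher, with a median of -0.37. By fold enrichment 8 of the 16 were lower in both P8 libraries and 2, Nfkb1 and Relb, were higher, where 61.7% and 4.24% of gene starts were. Of the NF-kB subunit genes, Nfkb1 had a ratio of scaled summits of 0.888, Rela 0.869, Rel 0.951 and Relb 1.06, and Nfkb2 had no start peak in any library. That of Relb was the highest of the list, with overlapping passages on this scale. Nfkbia and Tnfaip3, which restrain NF-kB and are also induced by it, had ratios of 0.718 and 0.63 on the same scale, with no overlap between passages, where the median gene start had 0.773.

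The labels' cell type was checked at marker genes. All 8 chondrocyte markers, such as Col2a1, Acan and Sox9, had a start peak in all 4 libraries, as 56.1% of protein-coding genes had. Their summed scaled summits were 338 and 386 at P0 and 182 and 192 at P8. On this scale each of the 8 was lower in both P8 libraries, as 77.6% of gene starts were. By fold enrichment 1 of the 8 was lower in both P8 libraries and 2, Col2a1 and Comp, were higher, where 61.7% and 4.24% of gene starts were. Of 6 fibroblast genes, 4 had a start peak in all libraries. On the scaled summit 2 of these 4, Col1a1 and Col3a1, were higher in both P8 libraries, an order of 2.40% of gene starts. By fold enrichment Col3a1 was higher in both P8 libraries, and 2 of the 4, Col1a1 and Fbln2, were lower. Over these 4 genes the summed scaled summits were 73.5 and 76.8 at P0 and 79.2 and 95.99 at P8. Pdgfra had no peak in either P8 library and Thy1 none in P8-B. Over all 6 genes, with no peak counted as 0, the sums were 100.3 and 102.96 at P0 and 88.0 and 95.99 at P8. The direction of the sum thus depended on leaving out Pdgfra and Thy1. Of 8 leukocyte genes, 5 had no start peak in any library, namely Ptprc, Csf1r, Adgre1, Itgam and Cd3e, where 34.0% of protein-coding genes had none. Spi1 and Lyz2 had one in all libraries, with summed scaled summits of 45.9 and 39.7 at P0 and 29.3 and 37.8 at P8, and Cd68 had one in the P0 libraries alone, at 18.4 and 21.1. Of 4 endothelial genes, Kdr and Tek had a start peak in all libraries and the other 2 in none, with sums of 22.6 and 21.9 at P0 and 17.6 and 19.4 at P8. The part of these marker differences in the values at the cluster was not tested. ATAC-seq of mixed cells cannot tell more open chromatin in every cell from more cells with open chromatin.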

How the data were processed

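ATAC-seq libraries from P0 and P8 mouse chondrocytes, 2 each, were sequenced with 50 bp paired-end reads. The authors used Bowtie2 for alignment and MACS2 to call the peaks of each library on its own; the build was mm10 (GRCm38) per the labels, and tool versions are not given in the sources used here. The deposited values of a peak are its summit pileup (a signal in tags with no scaling for depth), a fold enrichment (the ratio of summit to local background, each plus 1 tag), and p-values and q-values as −log10. A further table held only the authors' DiffBind comparison (fold changes, p-values and FDR), and was not used. Libraries were told apart by peak names, and 0 columns of values per library were left unused.

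The local background was computed from pileup and fold enrichment. It came in whole steps of 0.0073 tags (within 0.1 of a step) in 100.0% of the 293954 peaks above the genome background, the step of 73 bp tags in 10 kb, and the deposited p-values equal those of a Poisson distribution with this background (within 0.02). The scaled summit is the pileup over the library's genome background.

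Overlapping peaks (1 bp or more) were merged into sites, with the highest peak of a library standing for it. Genes came from RefSeq GRCm38.p6. A gene start was within 1 kb of the start, or of either end where the table gave no strand, as for Ccl2, Ccl7 and Ccl11. Exact two-sided permutation tests compared the libraries' values, and "above" means both libraries of a passage above both of the other. p-values measure only the spread between these libraries, which may be technical. Named sites lie within 1 kb of a listed gene's start, are held by both libraries of 1 passage only, or are among the 5 strongest by mean fold enrichment or the 5 with the largest absolute log2 ratio; other sites, the scaled summit and the local background were added after values were seen. The members and gene lists were chosen with earlier results of these data known. Merging, distances and order calls were tested on simulated data. The software was scipy 1.17.1, pandas 2.3.3, numpy 2.4.6 and matplotlib 3.10.9 under Python 3.11.15.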

Additional observations from a re-analysis of the deposited data

How the results depend on the processing

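Of 63 alternative values, 47 had the same direction (counts: a like number), though not always the same size, 7 moved and 9 turned direction. The cause was not tested. The 47 include counts of sites with P8 above on the scaled summit with 1 library left out, which could not fall. The ratio of peak numbers in the region ran from 0.896 (without P0-B) to 1.34 with 1 library left out. The 2 sites held by P8 alone became 1 at a reciprocal overlap of 50% and ran from 2 to 7 with 1 library left out, with 7 without P0-A and 4 without P8-B. The 2 sites held by P0 alone became 1 with flanks of 50 kb, and ran from 2 to 4, with 4 without P0-B. The median log2 fold enrichment at shared sites, -0.03, turned to 0.082 for the summit in tags, 0.24 after division by the library median and 0.50 for the scaled summit, and ran from -0.14 to 0.14 with 1 library left out: it was 0.14 without P0-A, 0.03 without P0-B and 0.03 without P8-A. The Ccl2 ratio of fold enrichment ran from 0.956 (without P0-B) to 1.14, and was 1.31 for the summit in tags and 1.72 for the scaled summit. The Ccl7 ratio was 0.962 for the summit in tags and turned to 1.23 on the scaled summit. The scaled summit's median log2 ratio, 0.50, was 0.76 after division by the library median, and ran from 0.39 to 0.75 (without P0-A); after that division 11 of 11 sites had P8 above, against 32.4% of all sites, with 27.8% below. No paired analysis was possible because the numbers in the peak names do not match the replicate numbers of the samples. At the genome background, sites with summits of under about 6 tags could not be seen at this depth. Where the local background is higher, a summit needs more tags to be called. From just before Ccl2 to just after Ccl7 the lowest called summits had 9 tags in P0-A and 11 in P0-B. At P8 they had 13 tags in P8-A and 15 in P8-B, so a missing peak there says less.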
